A study of Mus musculus with 16 samples.

Results

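The NF-kappa-B pathway genes Nfkb1, Nfkb2, Rela, Relb, Nfkbia, Nfkbiz, Tnfaip3, Bcl3 and Tnip1, together with the ubiquitin ligase gene Peli1, were followed by the open chromatin around them in mouse prostate organoids. Peaks of ATAC-seq, which maps open DNA through the sites where a transposase inserts, were merged over 16 libraries wherever they overlapped by at least 1 bp, and a merged region was given to the nearest protein-coding gene body within 100 kb in mm10. This gave the 10 genes 119 of 86616 merged regions. Of the 119 regions, 112 were called in at least 2 libraries and were tested, and the other 7 were called in 1 library and are not counted further. The data are peak lists and hold no RNA, so a value here is the number of called regions at a gene in a library, and the level of its transcript is not known from them.

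The organoids, grown from mouse prostate as small epithelial structures in a gel, were of genotype Control or SPOPmut, and were treated for 24 h with 10 nM DHT or with the solvent EtOH in a medium lacking mEGF. All 16 libraries carry the label sgNT, so Control and SPOPmut share it. The 4 groups, Control EtOH, Control DHT, SPOPmut EtOH and SPOPmut DHT, had 4 libraries each. The labels give neither the SPOP allele, nor how it was expressed, nor whether the 4 libraries of a group came from separate animals or cultures, so a p-value here speaks only of how far these libraries scatter, and that scatter may be technical.

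SPOP binds the substrates of a ubiquitin ligase and is often found mutated in prostate tumours, and DHT is the potent natural ligand of the androgen receptor. NF-kappa-B factors are dimers of Rel proteins that inhibitor proteins hold in the cytoplasm until kinases downstream of cytokine and Toll-like receptors release them. Several of the genes that the factors switch on encode their own inhibitors, such as Nfkbia and Tnfaip3, which closes a negative feedback loop. Peli1 encodes a ubiquitin ligase that works downstream of Toll-like and interleukin receptors.

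DHT was accompanied by more open regions at Peli1 and Nfkb2, and SPOPmut by more at Relb and Bcl3, by the gene-level test over both strata of the other factor. The 2 of 9 members higher with DHT stand beside 5.41% of all genes called higher with it. The members, Peli1 among them, were chosen with results of these data known, so this is a description and no test of the set. The 2 of 9 members higher in SPOPmut lie near the 19.4% of all genes called higher there. Bcl3 lost its call under several other settings. Nfkb2 and Relb lost theirs when only peaks at or above their list's median -log10 p were kept (adjusted exact p = 0.0954 and 0.493, exact permutation test). With the replicate number as a block, Peli1, Nfkb2, Relb and Bcl3 all lost their calls (adjusted exact p from 0.0633 to 0.149). Peli1 went from 4 called regions in every SPOPmut EtOH library to 11 in every SPOPmut DHT library. None of the 9 members tested passed as lower, beside 3.14% of all genes with DHT and 12.1% in SPOPmut. Under other settings Nfkb1, Tnip1 and Peli1 passed as lower in SPOPmut and Tnip1 as lower with DHT, with values given under each gene. A start or gene end of every member was called in 15 or 16 libraries, but how often this holds over all genes was not counted. A region called in 15 or 16 libraries can hardly differ by a score of called or not. The differences in calls between groups therefore lay in other regions, inside the gene bodies and at a distance from them. Whether the openness of the starts differed was not tested. In bulk libraries a change in the mix of cells and a change in openness per cell cannot be told apart.

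The start sites are shown first, because a start or gene end of every member was called in nearly all libraries. The feedback members are also textbook targets of the pathway. How often start regions are called in nearly all libraries over all genes was not counted. RefSeq start windows of the GRCm38.p6 build (mm10) were at hand for 7 of the 10 members, in 10 windows of 300 bases. A window reached from 250 bases before to 50 after an annotated start. All 10 lay in called regions. In no library did the summit (highest point) of the strongest peak lie in the downstream windows of Nfkb2 or the upstream window of Tnfaip3. That Tnfaip3 window is the one printed. The 150 bases before the start are given 5′ to 3′ on the strand of the gene, with every match to the kappa-B consensus, searched on both strands, in capitals. Nfkb2, Nfkbia, Tnfaip3 and Tnip1 carry matches there, and Rela and Peli1 do not. The stretches are chr19:46304587-46304736, plus strand for Nfkb2, chr12:55492648-55492797, minus strand for Nfkbia, chr10:19015411-19015560, minus strand for Tnfaip3, chr11:54962941-54963090, minus strand for Tnip1, chr19:5637391-5637540, plus strand for Rela and chr11:21091174-21091323, plus strand for Peli1.
Nfkb2: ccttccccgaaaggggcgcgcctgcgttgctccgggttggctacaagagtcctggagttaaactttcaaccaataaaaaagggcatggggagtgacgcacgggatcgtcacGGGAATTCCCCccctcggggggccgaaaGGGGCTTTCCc
Nfkbia: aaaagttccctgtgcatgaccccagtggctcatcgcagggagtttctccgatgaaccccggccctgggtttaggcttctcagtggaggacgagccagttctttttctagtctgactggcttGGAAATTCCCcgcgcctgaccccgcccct
Tnfaip3: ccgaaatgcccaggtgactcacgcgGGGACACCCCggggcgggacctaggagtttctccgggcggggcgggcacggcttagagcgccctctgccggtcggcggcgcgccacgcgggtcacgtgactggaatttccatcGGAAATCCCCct
Tnip1: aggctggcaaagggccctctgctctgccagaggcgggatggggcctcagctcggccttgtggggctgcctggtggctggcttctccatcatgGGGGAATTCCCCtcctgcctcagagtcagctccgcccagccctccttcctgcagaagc
Rela: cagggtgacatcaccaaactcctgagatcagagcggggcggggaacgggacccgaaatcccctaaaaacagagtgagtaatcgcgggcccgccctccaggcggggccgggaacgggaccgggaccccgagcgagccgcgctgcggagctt
Peli1: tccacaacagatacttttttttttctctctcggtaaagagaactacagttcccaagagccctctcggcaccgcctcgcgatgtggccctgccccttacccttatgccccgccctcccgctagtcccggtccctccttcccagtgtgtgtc

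A kappa-B match was found in 7 of the 10 member windows, which belong to 5 of the 7 members. Over all 32851 mouse start windows of the same length, 4.51% held a match. The windows of 1 gene overlap or lie close together, so the 10 are not independent. In Nfkb2 the 2 capital stretches end 29 and 2 bases before the start, and the first of them holds 2 overlapping matches. The single stretch of Tnip1 holds 3 overlapping matches between 58 and 47 bases before its start. The Nfkbia match lies 29 to 20 bases before the start, and the match of Bcl3, GGGAAGTCCC, lies 2 to 11 bases after it. The androgen receptor half-site TGTTCT, on either strand, occurred in 1 of the 10 windows, that of the start of Tnfaip3 inside its gene body, against 19% of all windows. The AP-1 motif TGANTCA occurred in 1 window of Nfkb2 and in 1 of Tnfaip3, against 7.81% of all, and overlapped no kappa-B match. A match is a description of the letters in the window and not a measured site.

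Each of the 10 members had a region over an annotated start or, where no start window was at hand, over a gene end that was called in 15 or 16 libraries. At Nfkb2 the region chr19:46303708-46306451 covered all 3 annotated starts, was 2744 bp wide and stood at the 99.5 to 99.9 percentile of -log10 p within each list. The region over the start of Nfkbia, chr12:55489989-55493222, covered most of the gene body and stood at the 94.6 to 99.0 percentile. No other start region of a member stood as high in the lists. Peli1 had its start region chr11:21090829-21092305 at the 76.9 to 88.2 percentile and Rela its only region, chr19:5636806-5638164, at the 57.2 to 82.5 percentile. At Tnfaip3 the region over the upstream start, chr10:19014204-19015930, and that over the start inside the gene body, chr10:19011081-19012301, were each called in all 16 libraries. At Bcl3 the start region chr7:19822536-19823158 was also called in all 16, though it reached down to the 1.70 percentile in 1 list. The Tnip1 start, chr11:54962721-54963291, was called in 15, all but 1 of the SPOPmut DHT libraries. Called end regions of Nfkb1, chr3:135690314-135691979, Relb, chr7:19628118-19629938, and Nfkbiz, chr16:55838492-55839511, were present in all 16.

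Of the 112 tested member regions, 58 were called in all 16 libraries (51.8%), against 48.9% of the 80352 regions tested over the genome. The members differed in this share. It was 85.7% for Bcl3 (6 of 7), 75.0% for Nfkbia (9 of 12) and 62.5% for Nfkbiz (15 of 24), but 33.3% for Peli1 (4 of 12) and 30.4% for Nfkb1 (7 of 23). The 58 constant regions had a median width of 1190 bp and a median percentile of 71.5 within the lists, and the 54 variable ones 516 bp and 24.4. The variable regions were thus narrower and lower in the lists in which they were called. Both can follow from the method. Merging more peaks can only widen a region, and a peak low in its list lies nearer to the caller's threshold. No such medians over all regions are given here. Of all 119 regions, 51 had their midpoint inside a member's gene body.

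**Figure D1:**
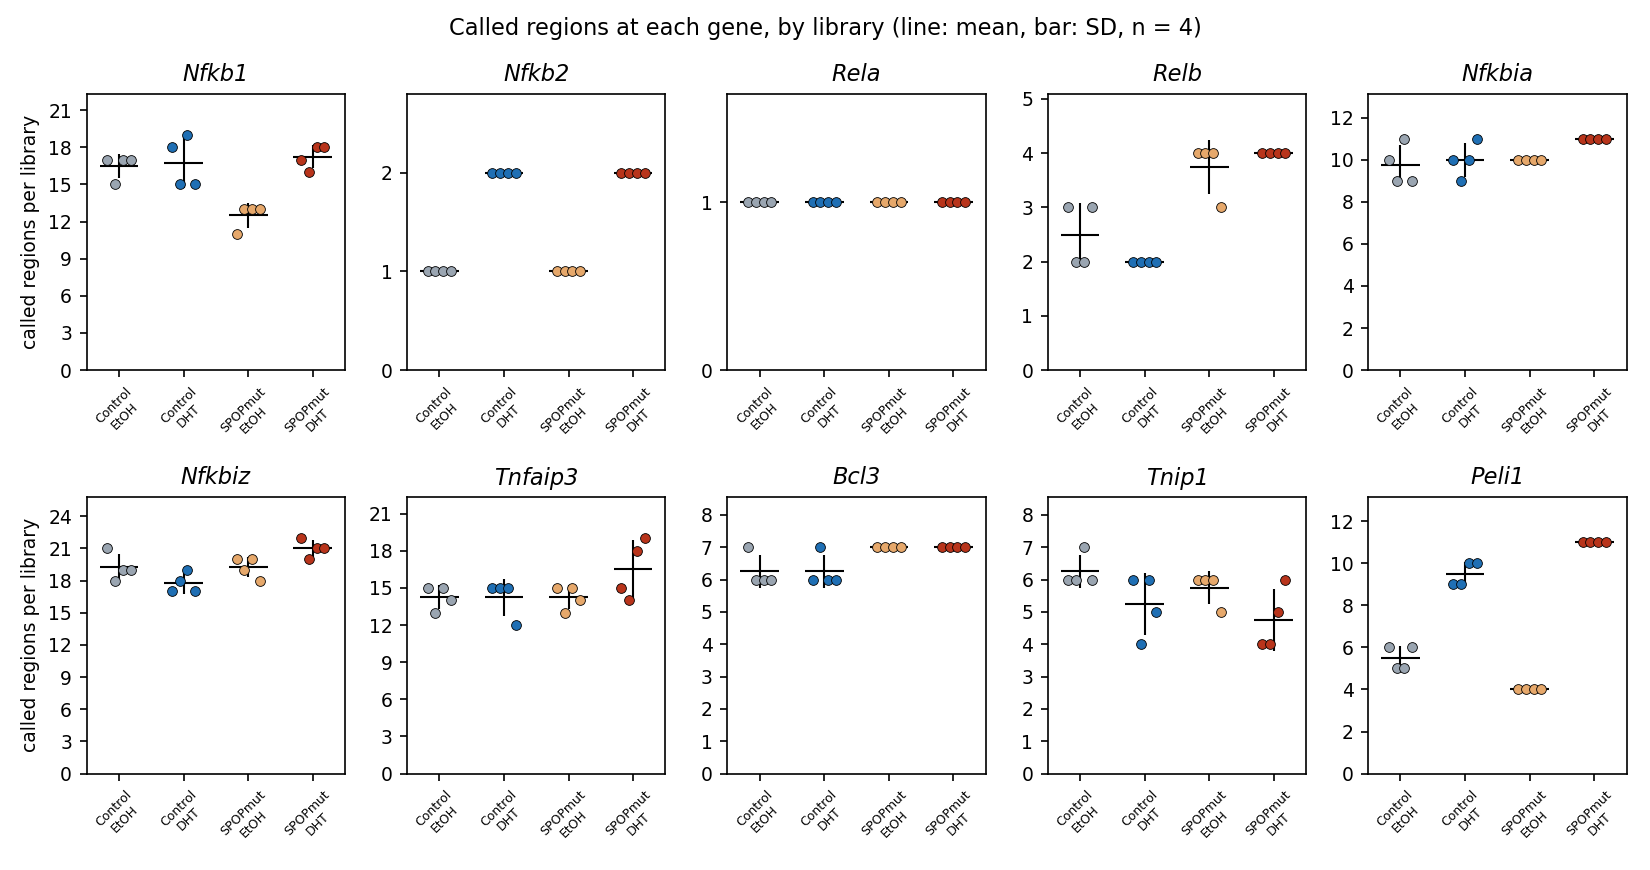
Called regions at each of the 10 genes (y axis, number per library) in the 4 groups (x axis); each point is 1 library, the line is the mean and the bar the SD of 4 libraries. Peli1 reaches 9 to 11 with DHT and 4 to 6 with EtOH, Nfkb2 goes from 1 to 2 with DHT in both genotypes, and Relb has 3 or 4 in SPOPmut and 2 or 3 in Control.

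Lists held between 57245 and 69644 peaks, and no pair of lists was identical. Read depth is unknown, since the lists carry no read counts, and a longer list can call more regions at any gene. Regions of all 10 luminal and basal epithelial marker genes were called. Summed over its 6 genes, the luminal list had 38 to 43 called regions in Control and 48 to 51 in SPOPmut libraries, and the basal list of 4 genes had 30 to 33 in Control EtOH, 35 to 39 in Control DHT, 28 to 31 in SPOPmut EtOH and 31 to 33 in SPOPmut DHT. Immune markers, of interest because leukocytes use NF-kappa-B heavily, summed over 6 genes to 8 to 10 in Control EtOH, 5 to 8 in Control DHT, 9 to 11 in SPOPmut EtOH and 10 to 12 in SPOPmut DHT, with Lyz2 at 0 in all 16. With DHT the genotypes thus did not overlap in this sum, nor in the luminal, basal and endothelial sums. Any link of these sums to the counts of Relb, Nfkbiz and Peli1, higher in SPOPmut in that contrast, was not tested. Endothelial markers had 16 to 20 in Control and 9 to 13 in SPOPmut. Stromal markers had 9 to 11 in Control EtOH, 7 to 9 in Control DHT, 7 to 8 in SPOPmut EtOH and 5 to 8 in SPOPmut DHT. Luminal and endothelial levels moved with genotype, and stromal levels with genotype under EtOH. Basal levels moved with DHT in Control and with genotype under DHT. The part of these shifts in the results below was not tested.

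Over all members, the tested regions called per library were 76 to 87 in Control EtOH (median 83), 81 to 90 in Control DHT (84), 76 to 81 in SPOPmut EtOH (78.5) and 90 to 100 in SPOPmut DHT (96). The lowest SPOPmut DHT library equalled the highest of the other groups, and 0.154 to 0.162% of their called regions belonged to the members, against 0.129 to 0.150% in the other groups. No test was made of this sum, since the members were chosen with results of these data known. The median over the 9 members tested as genes was 0.625 regions higher in SPOPmut than in Control and 0.625 higher with DHT than with EtOH, beside medians of 0 for both comparisons over all 11210 genes tested. Rela, with 1 region, was below the minimum of 2 regions and had no gene-level test.

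Among the Rel subunits, Rela, the main activating subunit of the canonical dimer, had its 1 region called in all 16 libraries. Nfkb2, whose precursor yields the DNA-binding partner of Relb in the non-canonical pathway, had 1 called region in each of the 8 EtOH libraries and 2 in each of the 8 DHT libraries. The groups did not overlap in either genotype. By the exact permutation test of treatment labels within genotype, adjusted by Benjamini-Hochberg over all genes, Nfkb2 rose with DHT by 1.0 region (adjusted exact p = 0.0119, higher in 8 of 8 DHT libraries). In this comparison 8.55% of all genes tested were called, 5.41% higher and 3.14% lower, and 23.3% had an unadjusted p under 0.05, while 2 of the 9 members, Nfkb2 and Peli1, were called higher and none lower. The raw p of both genes, 0.000408, is the smallest this design can give. With only peaks at or above their list's median -log10 p kept, Nfkb2 was 0.625 regions higher and no longer called (adjusted exact p = 0.0954).

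The region that made the difference at Nfkb2 is chr19:46296594-46297540, 947 bp wide. Its midpoint lies 3.93 kb before the gene body and 7.67 kb upstream of the nearest annotated start. It was called in 4 of 4 Control DHT and 4 of 4 SPOPmut DHT libraries and in none of the 8 EtOH libraries (exact stratified test, adjusted exact p = 0.0231 over all regions). In the lists that held it, it stood at the 43.8 to 74.5 percentile. With peaks below the list median left out it was not called (adjusted exact p = 0.262). By that region test, 1.77% of all regions were called, 1.51% higher with DHT and 0.259% lower, and 5 of the 112 member regions were called higher and 0 lower. At an unadjusted p under 0.05 the share over the genome was 11.1% in either direction. Regions in all 8 DHT and no EtOH libraries were the ones that could pass. The 5 are this region, 3 regions of Peli1 and 1 of Nfkb1, each of that pattern.

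Relb encodes the activating subunit of the non-canonical dimer. Its called regions were 3, 2, 2 and 3 in the Control EtOH libraries and 2 in each Control DHT library. In SPOPmut they were 4, 4, 4 and 3 with EtOH and 4 in each DHT library. The genotypes met at 3 regions with EtOH and did not overlap with DHT. Relb rose in SPOPmut by 1.62 regions (exact permutation test of genotype labels within treatment, p = 0.00122, adjusted exact p = 0.00783 over all genes). In that comparison 31.5% of genes were called, 19.4% higher and 12.1% lower, and 41.2% had an unadjusted p under 0.05, while 2 of the 9 members, Relb and Bcl3, were called higher and none lower, so the members' share lies near the background. With calls taken as a share of each library's regions, 51.2% of the called genes were higher in SPOPmut, and after correction for the chromosome 48.9%, against 61.7% as counted.

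Both Relb and Bcl3 lie on chromosome 7, whose share of all called regions was 5.77% in Control and 6.25% in SPOPmut, a relative rise of 8.41%. The chromosome correction subtracts the number predicted from the fraction of the chromosome's tested regions that each library called. That fraction also follows list length and is not the share just given. After the correction, Relb kept its call and Bcl3 lost it (0.147 regions, adjusted exact p = 0.61). Relb lost its call when only peaks at or above the list median were kept (0.375 regions, adjusted exact p = 0.493). Of the Relb regions that varied, all 3 inside the gene body, chr7:19609613-19610183 was called in 2 of 4 Control EtOH, 0 of 4 Control DHT and all 8 SPOPmut libraries. The region chr7:19624174-19624795 was called in no Control library, 1 SPOPmut EtOH library and all 4 SPOPmut DHT libraries. Both separated the genotypes with DHT. The third, chr7:19622316-19622654, was called in 2 SPOPmut EtOH libraries and in no other library.

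Nfkb1, whose precursor yields the DNA-binding subunit that pairs with Rela, had the most variable regions of any member, 16 of 23. Its counts were 17, 15, 17 and 17 in Control EtOH and 18, 15, 19 and 15 in Control DHT. They were 11, 13, 13 and 13 in SPOPmut EtOH and 17, 16, 18 and 18 in SPOPmut DHT. SPOPmut EtOH was below every library of the other 3 groups, which overlapped. Within EtOH the genotypes differed by 4.0 regions (exact permutation p = 0.0286, the smallest that 4 against 4 allows), and within SPOPmut DHT and EtOH differed by 4.75 (exact permutation p = 0.0286). Counts that do not overlap and are lower in SPOPmut EtOH occurred in 8.72% of all genes, and counts that are higher with DHT in SPOPmut in 9.14%.

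Over both strata Nfkb1 did not pass, at 1.75 regions fewer in SPOPmut (adjusted exact p = 0.203) and 2.5 more with DHT (adjusted exact p = 0.143). The DHT effect was 4.5 regions larger in SPOPmut (exact permutation p = 0.0498, adjusted exact p = 0.699). Under that test, whose null is no DHT effect in either genotype, 0 of 11210 genes were called, with 799 genes (7.13%) at an unadjusted p under 0.05. Nfkb1 did pass as lower in SPOPmut under a share of the called regions, with a change of -2.28 regions (adjusted exact p = 0.0291), under the chromosome correction, with -3.13 (adjusted exact p = 0.0091), and above the list median, with -1.5 (adjusted exact p = 0.0436). It passed as higher with DHT under the same settings, by 2.52, 2.42 and 2.5 regions (adjusted exact p = 0.0363, 0.035 and 0.0306). Chromosome 3, which holds Nfkb1, had a share of called regions 4.92% higher in SPOPmut.

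**Figure D2:**
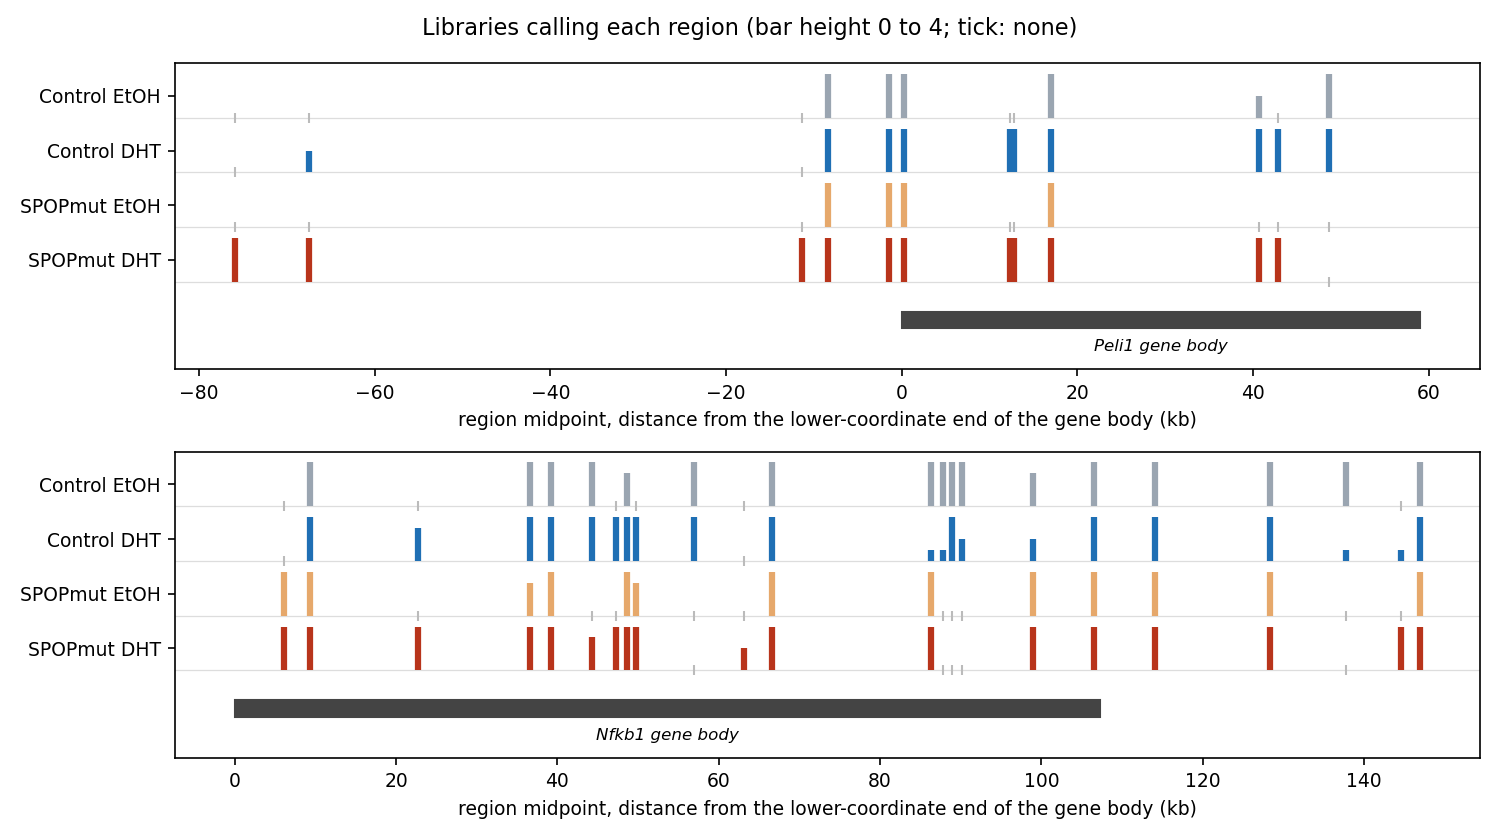
Tested regions of Peli1 (top) and Nfkb1 (bottom) by the distance of the midpoint from the lower-coordinate end of the gene body (x axis, kb); bar height is the number of libraries of 4 that called the region, a tick marks none, and the dark box is the gene body. At Peli1, 3 regions in the body stand in all 8 DHT libraries and no EtOH library, and at Nfkb1 3 neighbouring regions towards the higher-coordinate end of the body stand in Control EtOH and in no SPOPmut library.

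Single regions of Nfkb1 went in both directions with genotype. Called in all 8 Control libraries and no SPOPmut library were chr3:135641104-135642148 and chr3:135672972-135674288, both in the gene body, while the reverse, all SPOPmut libraries and none of Control, held for chr3:135590560-135591064, also in the body (each adjusted exact p = 0.00961, exact stratified test). Over the genome that test called 6.99% of regions, 3.76% higher in SPOPmut and 3.23% lower, with 18.4% at an unadjusted p under 0.05. Of the 112 member regions it called 3 higher and 3 lower, again near the background. The second of the lost regions has a neighbour on each side, chr3:135672295-135672720 and chr3:135674459-135675118, called in all 4 Control EtOH, 1 and 2 Control DHT and no SPOPmut libraries. A region outside the body, chr3:135722208-135722525, 30.4 kb from its end, was likewise called in 4, 1, 0 and 0 libraries of Control EtOH, Control DHT, SPOPmut EtOH and SPOPmut DHT.

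With DHT, chr3:135631158-135632739 in the Nfkb1 body was called in all 8 DHT and no EtOH libraries (adjusted exact p = 0.0231), a call lost above the list median (adjusted exact p = 0.262). Its median percentile was 43.7 within the Control DHT lists and 80.6 within the SPOPmut DHT lists, which differ in length, so no order is read from these. Further along, past a region called in 15 libraries, chr3:135633754-135635023 had 0, 4, 3 and 4 calls in the order of groups above. It passed as higher with DHT above the list median (adjusted exact p = 0.0217). The region chr3:135628696-135629240 had 4, 4, 0 and 3, absent from every SPOPmut EtOH library. Also called in all 4 SPOPmut DHT libraries and in none with EtOH were chr3:135607110-135607558 and chr3:135728975-135729445, in 3 and 1 Control DHT libraries. The first passed on leaving out Control DHT replicate 4 (adjusted exact p = 0.0216).

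Among the inhibitors, Nfkbia encodes the cytoplasmic inhibitor that is destroyed when the pathway is switched on. Its counts were 10, 9, 11 and 9 in Control EtOH, 10, 9, 10 and 11 in Control DHT, 10 in each SPOPmut EtOH library and 11 in each SPOPmut DHT library. Within SPOPmut the DHT libraries were all higher by 1.0 region, and the Control counts overlapped with both. Nfkbia passed neither gene-level test (adjusted exact p = 0.291 for genotype and 0.427 for DHT). It was called higher in SPOPmut without Control EtOH replicate 3 (0.958 regions, adjusted exact p = 0.00986), without Control DHT replicate 4 (0.917, adjusted exact p = 0.0233) and above the list median (1.12, adjusted exact p = 0.0332). The added region was chr12:55457595-55457956, 31.6 kb beyond the downstream end, called in all 4 SPOPmut DHT and 2 Control DHT libraries and in no EtOH library.

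Nfkbiz encodes a nuclear inhibitor-like protein that helps to switch on a subset of late targets. Its counts were 21, 18, 19 and 19 in Control EtOH and 17, 18, 19 and 17 in Control DHT. They were 20, 19, 20 and 18 in SPOPmut EtOH and 22, 20, 21 and 21 in SPOPmut DHT. The genotypes overlapped with EtOH and not with DHT, where SPOPmut was 3.25 regions higher (exact permutation p = 0.0286). Over both treatments the difference of 1.62 did not pass (adjusted exact p = 0.117) unless Control EtOH replicate 1 or SPOPmut EtOH replicate 4 was left out (adjusted exact p = 0.0378 and 0.0475), and neither did the difference between the DHT effects, 3.25 (p = 0.0114, adjusted exact p = 0.511, exact permutation test).

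Most Nfkbiz regions lie on the lower-coordinate side of the gene, up to 95.9 kb from the body, and 2 of them passed as higher in SPOPmut. The region chr16:55757222-55758809, 53.4 kb from the body, was called in all 8 SPOPmut and no Control libraries (adjusted exact p = 0.00961), and chr16:55724786-55725474, 86.2 kb from it, in 3 SPOPmut EtOH and 4 SPOPmut DHT libraries and no Control library (adjusted exact p = 0.0292). Both lost the call when a peak had to cover 0.5 of the region (adjusted exact p = 0.101 and 0.141), and the second also with lists of equal length (adjusted exact p = 0.119). Other regions separated groups in 1 treatment or genotype. The region chr16:55807528-55807997, 3.61 kb from the body, was called in all 4 Control EtOH and no SPOPmut libraries. The regions chr16:55723277-55723573 and chr16:55793125-55793635 were called in all 4 SPOPmut DHT libraries, the first in no Control DHT and the second in no SPOPmut EtOH library.

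Bcl3 encodes a nuclear inhibitor-like protein that binds DNA-bound subunits and can activate. It had 7, 6, 6 and 6 called regions in Control EtOH and 6, 7, 6 and 6 in Control DHT, and 7 in each of the 8 SPOPmut libraries. Counts overlapped at 7 in both treatments. The difference of 0.75 regions passed the gene-level test (adjusted exact p = 0.0358) and came from 1 region, chr7:19803006-19803430, 5.24 kb beyond the downstream end, called in 2 of 8 Control and 8 of 8 SPOPmut libraries. The call was lost with lists of equal length (0.625 regions, adjusted exact p = 0.197), with a share of called regions (0.525, adjusted exact p = 0.117), with the chromosome correction given above and above the list median (0.375, adjusted exact p = 0.376).

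Tnfaip3 encodes a ubiquitin-editing enzyme that switches the pathway off. Its counts were 15, 13, 15 and 14 in Control EtOH, 15, 15, 15 and 12 in Control DHT, 15, 13, 15 and 14 in SPOPmut EtOH and 15, 14, 18 and 19 in SPOPmut DHT. All 4 groups overlapped, and the highest values came from SPOPmut DHT libraries 3 and 4, which have the longest lists of that group, 66532 and 69644 peaks. Neither gene-level test passed (adjusted exact p = 0.448 and 0.619). With the chromosome correction it was called higher in SPOPmut (1.88 regions, adjusted exact p = 0.00343), chromosome 10 having a share of called regions 8.45% lower there. The regions chr10:19063594-19063948, chr10:19065195-19065586 and chr10:19093516-19094135, 48.4 to 78.4 kb upstream, were called in 3, 2 and 3 SPOPmut DHT libraries and in no other group. A nearer region, chr10:19021938-19022598, 6.86 kb upstream, was called in 3 Control DHT and 4 SPOPmut DHT libraries and in no EtOH library (adjusted exact p = 0.0717, exact stratified test), and passed without Control DHT replicate 4 (adjusted exact p = 0.0216).

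Tnip1 encodes a ubiquitin-binding partner of the Tnfaip3 protein that restrains the pathway. It had 6, 6, 7 and 6 called regions in Control EtOH, 6, 4, 6 and 5 in Control DHT, 6, 6, 6 and 5 in SPOPmut EtOH and 4, 4, 5 and 6 in SPOPmut DHT. All groups overlapped, and Tnip1 had a difference of -1.0 regions with DHT (adjusted exact p = 0.191) and of -0.5 in SPOPmut (adjusted exact p = 0.543). It was called lower with DHT with lists of equal length, at -1.25 regions (adjusted exact p = 0.00874), with a share of called regions, at -1.0 (adjusted exact p = 0.0363), and with the chromosome correction, at -0.967 (adjusted exact p = 0.0392). It was called lower in SPOPmut with lists of equal length, at -1.0 (adjusted exact p = 0.00875), and above the list median, at -0.625 (adjusted exact p = 0.0451). The region chr11:54961455-54961950, 1.24 kb inside the start, was called in all 4 Control EtOH, 2 Control DHT and no SPOPmut libraries.

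Peli1 showed the largest DHT difference of the members. Its counts were 6, 5, 5 and 6 in Control EtOH and 9, 9, 10 and 10 in Control DHT. They were 4 in each SPOPmut EtOH library and 11 in each SPOPmut DHT library. No pair of groups overlapped. Peli1 rose with DHT by 5.5 regions (exact permutation test, adjusted exact p = 0.0119, higher in 8 of 8 DHT libraries), by 4.0 in Control and 7.0 in SPOPmut. The call held on leaving out each of the 16 libraries in turn, with adjusted p from 0.011 to 0.0129.

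Genotype went opposite ways at Peli1 under EtOH and DHT, with means of 5.5 ± 0.577 (SD, n = 4) in Control and 4.0 in SPOPmut with EtOH, and 9.5 ± 0.577 (SD, n = 4) in Control and 11 in SPOPmut with DHT. Each contrast had an exact permutation p = 0.0286, the smallest possible, and the overall genotype difference was 0. With regions counted in the body and within 10 kb of it, Peli1 was called lower in SPOPmut, at -1.25 regions (adjusted exact p = 0.00377). The DHT effect was 3.0 regions larger in SPOPmut. With treatment labels permuted, a null that supposes no DHT effect at all, its exact p was 0.383 (adjusted exact p = 1). When the average response to DHT was first removed, the permutation p was 0.000408 (adjusted permutation p = 0.0089), and 573 genes were called over the genome. That average is estimated from the same libraries, so this permutation test is approximate and not exact. Genotype labels permuted within treatment, a setting chosen after the data were seen, gave exact p = 0.000408 and adjusted exact p = 0.532.

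In the Peli1 body 3 regions were called in all 8 DHT and no EtOH libraries (each adjusted exact p = 0.0231, exact stratified test). They are chr11:21103381-21103731 and chr11:21103865-21104246, 12.2 and 12.7 kb past the start, and chr11:21133781-21134430, 42.8 kb past it. The first and second are close neighbours with the same calls in every library, and they are counted as separate regions. The last stood highest in the lists, at the 54.6 to 68.0 percentile, and the second lowest, at 5.02 to 39.2. The second lost the call with lists of equal length (adjusted exact p = 0.0676). Above the list median the last alone kept its call (adjusted exact p = 0.0217), the first lost it (adjusted exact p = 0.262) and the second had no peak left. Another, chr11:21131762-21132203, 40.7 kb past the start, was called in all 8 DHT libraries and in 2 Control EtOH libraries, and had adjusted exact p = 0.161.

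Upstream of Peli1, chr11:21015179-21015550 and chr11:21079447-21080431, 76.0 and 11.4 kb before the start, were called in all 4 SPOPmut DHT libraries and in no other library. Regions of that pattern make up 1.76% of all tested regions, and these were the 2 among the 112. A further upstream region, chr11:21023532-21024123, 67.5 kb before the start, was called in all 4 SPOPmut DHT and 2 Control DHT libraries. In the other direction, chr11:21139706-21140086, 48.6 kb past the start, was called in all 8 Control and no SPOPmut libraries (adjusted exact p = 0.00961), and the 4 regions called throughout included the start. The share of called regions on chromosome 11, which holds Peli1 and Tnip1, was 4.92% lower in SPOPmut.

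The genes whose counts over the 16 libraries were most like those of Peli1, by the mean absolute difference of counts scaled to each gene's highest count, were Bst1 (0.0578), Chrd (0.0714) and Rnf103 (0.0727), of 4792 genes that reached 5 called regions. Bst1 had 3 regions in each EtOH library, 5 or 6 in Control DHT and 6 in each SPOPmut DHT library. The likeness was searched for in these counts and carries no test.

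**Figure D3:**
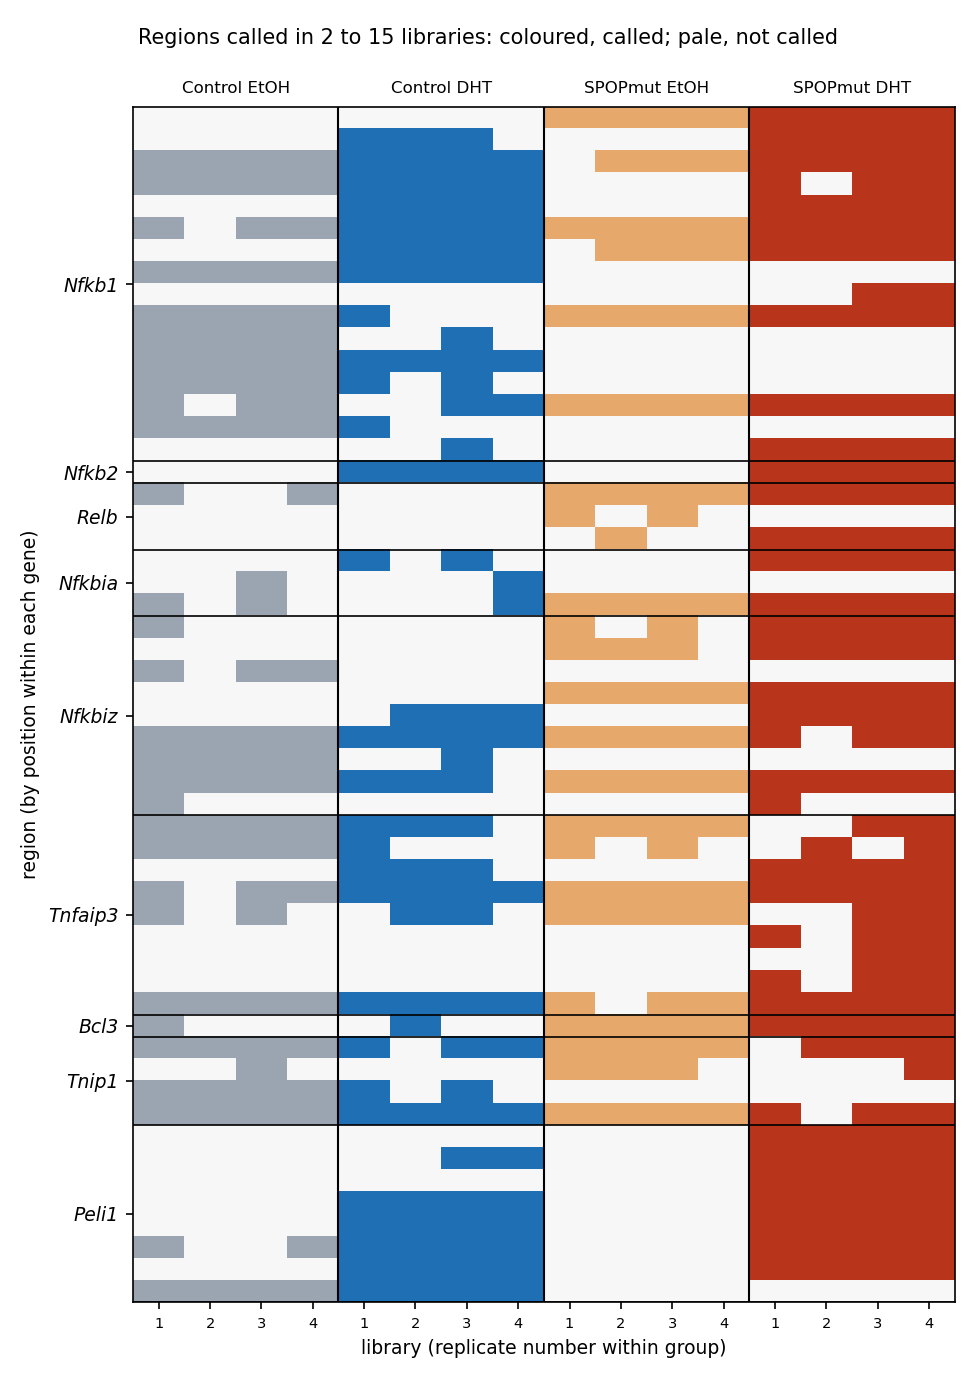
The 54 member regions called in 2 to 15 libraries (rows, ordered by gene and position) in the 16 libraries (columns, by group and replicate number); a coloured cell is called and a pale one is not. Of the Peli1 rows, 7 are filled in SPOPmut DHT and empty in SPOPmut EtOH, and several Nfkb1 rows are filled in Control EtOH and empty in SPOPmut EtOH.

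Counted over the 4 contrasts of 4 libraries against 4, a region was taken as gained or lost if called in all libraries of 1 group and none of the other. With DHT in SPOPmut, 14 of the 112 member regions were gained (12.5%, against 4.7% of all tested regions) and 0 lost (against 1.98%). The 14 comprise 7 of Peli1, 3 of Nfkb1 and 1 each of Nfkb2, Nfkbia, Nfkbiz and Tnfaip3. With DHT in Control, 6 were gained (5.36%, against 2.93%) and 0 lost (against 1.96%), which were 3 of Peli1, 2 of Nfkb1 and 1 of Nfkb2. Both DHT contrasts have EtOH libraries of their own genotype as controls and share none. In SPOPmut against Control with EtOH, 2 were gained (1.79%, against 4.84%) and 9 lost (8.04%, against 4.36%), of which 6 of the 9 were at Nfkb1. With DHT, 8 were gained (7.14%, against 6.41%) and 3 lost (2.68%, against 4.22%). The regions of 1 gene share its surroundings and are not replicates. The members were chosen with results of these data known, and no test was made of these counts.

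**Figure D4:**
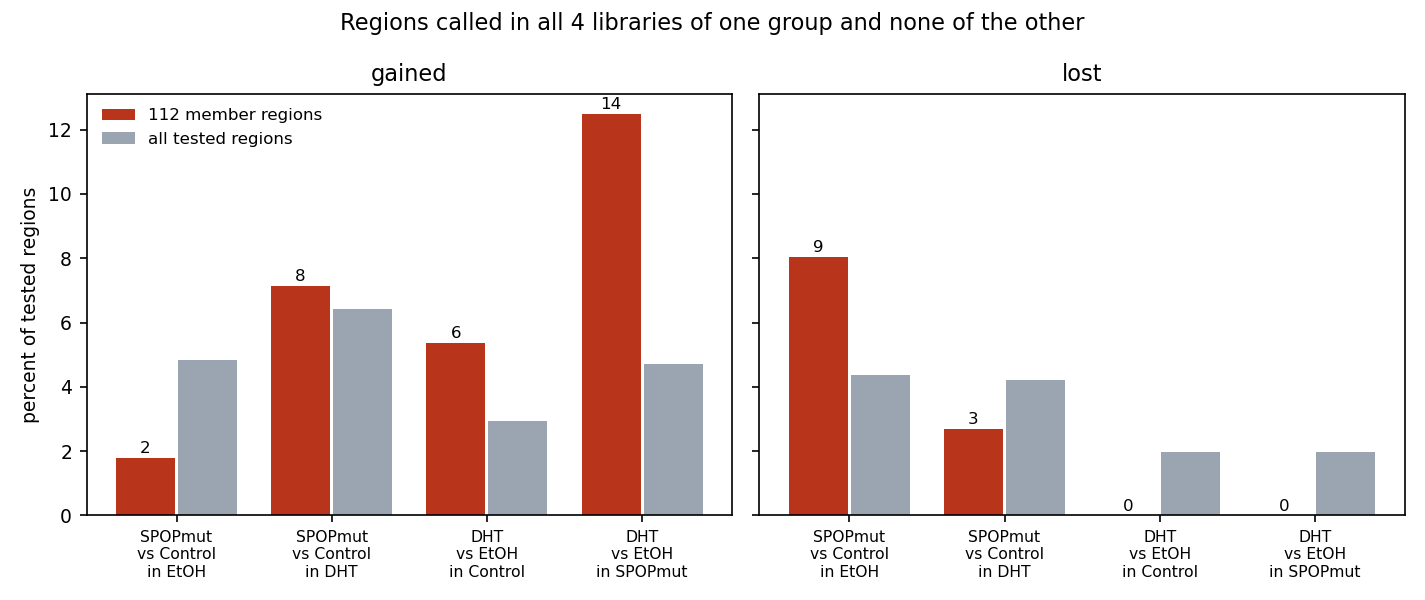
Percent of tested regions (y axis) called in all 4 libraries of the first group and none of the second (gained, left) or the reverse (lost, right) in each contrast (x axis); red bars are the 112 member regions, with their number on top, and grey bars all tested regions. The member bar is the taller for DHT gains in both genotypes, at 12.5% against 4.7% in SPOPmut, and no member region was lost with DHT. Peli1 alone holds 7 of the 14 gains with DHT in SPOPmut and 3 of the 6 in Control.

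Whole-gene counts that did not overlap between groups were higher with DHT for Nfkb2 and Peli1 in Control (5.17% of all genes) and for Nfkb1, Nfkb2, Nfkbia and Peli1 in SPOPmut (9.14%), and lower for none (4.44% and 4.53%). In SPOPmut they were lower for Nfkb1 and Peli1 with EtOH (8.72%) and higher for none (13.1%). With DHT they were higher in SPOPmut for Relb, Nfkbiz and Peli1 (16%) and lower for none (8.53%).

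The wider pathway was listed as 80 other genes, of which 61 had enough regions to be tested. With DHT, 7 of the 61 were called higher and 1 lower, beside 5.41% and 3.14% of all genes tested. Bcl2l1, which encodes an anti-apoptotic target of the pathway, rose by 2.5 regions, from 7.5 ± 0.577 to 10.0 in Control and from 9.5 ± 0.577 to 12.0 in SPOPmut (SD, n = 4, adjusted exact p = 0.0119, exact permutation test). Saa3, an acute-phase target, rose by 1.38 and Tab3, an adaptor of the kinase that activates the inhibitor kinases, by 1.25 (each adjusted exact p = 0.0119). Tnip3, a relative of Tnip1, fell by 1.62 (adjusted exact p = 0.0288). Of the receptors and ligands 2 of 13 were higher, of the adaptors and ubiquitin enzymes 1 of 13, of the kinases and their adaptors 1 of 9 and of the targets 3 of 16, and 1 of 10 subunits and inhibitors was lower. Tab3 and Saa3 lost the call with lists of equal length (adjusted exact p = 0.129 and 0.127), and Tnip3 showed 0 difference above the list median.

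By genotype, 15 of the 61 were called higher in SPOPmut and 7 lower, which lies near the 19.4% and 12.1% of all genes tested. Of the 16 targets 7 were higher and 2 lower, and no test was made of any role. Tab1, another adaptor of that kinase, rose by 5.62 regions, from 1.0 in every Control library to 6.25 ± 0.5 with EtOH and 7.0 with DHT (SD, n = 4, adjusted exact p = 0.00325, exact permutation test). Il1r1, a receptor of interleukin-1, rose by 2.25 (adjusted exact p = 0.0118), Bcl2l1 by 2.0 (adjusted exact p = 0.00325) and Ccl20, a chemokine target, by 2.0 (adjusted exact p = 0.017). Tnfrsf1b, a receptor of tumour necrosis factor, Map3k14, the kinase of the non-canonical pathway, and Commd1, which helps to remove Rela, each fell by 1.88 (adjusted exact p = 0.00325, 0.0136 and 0.00783). Bcl2l1 lost the genotype call with the chromosome correction (0.153 regions, adjusted exact p = 0.561) and Ccl20 above the list median (0.875, adjusted exact p = 0.0935) and within 10 kb of the body (0.5, adjusted exact p = 0.394). Commd1 turned to 0.75 regions higher above the list median (adjusted exact p = 0.15).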

How the data were processed

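ATAC-seq of 16 organoid libraries was analysed from 1 deposited peak list per library. The submitters' processing notes name the mm10 build, Bowtie2 2.3.4.1, SAMtools 1.8 and the peak caller Genrich (version not given in the sources used here). The lists give one set of peaks for each library, so replicates were not pooled. In the deposited lists the score of a peak has an upper limit of 1000, and the signal is an area that is above 200 in every peak. The -log10 p is the authors' own value at the peak, and the last column gives the position of its summit. A -log10 p depends on the depth of the library, which is unknown, so it was used only as a percentile within its own list, and no count of reads, interval or floor can be given.

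Peaks overlapping by at least 1 bp were merged, and a region was called in a library if any of its peaks lay in it. Regions went to the nearest protein-coding gene body within 100 kb by RefSeq coordinates of GRCm38.p6, which give gene bounds but not exons. Regions called in at least 2 libraries and genes with at least 2 such regions were tested. Genes were tested with an exact two-sided permutation test over 4900 arrangements, with labels permuted within the other factor, and regions with an exact stratified hypergeometric test; both were adjusted by Benjamini-Hochberg over all 11210 genes or 80352 regions, with a threshold of 0.05. With 4 libraries against 4 the smallest exact p is 0.0286, so single contrasts were described and not corrected. Both tests were tested on simulated data. Python 3.11.15, NumPy 2.4.6, pandas 2.3.3, SciPy 1.17.1 and Matplotlib 3.10.9 were used.

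The members and lists were chosen with earlier results of these data known. All 10 members are named, with every region that passed a region test or separated 2 groups, the region over a start or gene end called in most libraries, the 3 genes most like Peli1 and, of the pathway list, up to 3 genes per direction with the largest change past the test, with ties. Alternatives were peaks at or above the list's median -log10 p, lists of equal length, a peak covering at least 0.5 of the region, 25 kb or 10 kb in place of 100 kb, no filter on regions, shares of called regions, a chromosome correction, the replicate number as a block, another null for the difference of DHT effects and leaving out each library.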

Additional observations from a re-analysis of the deposited data

Results flagged for a closer look

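In 8 of the 40 sets of 4 counts (10 genes in 4 groups), 1 library stood apart from the other 3 by more than Dixon's criterion allows. Chance marks about 1 in 20 such sets, and in small whole-number counts 3 equal values and 1 different one are enough. The libraries were Control EtOH replicate 2 for Nfkb1 (15 called regions, against 17 in the others), SPOPmut EtOH replicate 1 for Nfkb1 (11, against 13), SPOPmut EtOH replicate 4 for Relb (3, against 4) and Control DHT replicate 4 for Tnfaip3 (12, against 15). For Bcl3 they were Control EtOH replicate 1 and Control DHT replicate 2 (7 each, against 6), and for Tnip1 Control EtOH replicate 3 (7, against 6) and SPOPmut EtOH replicate 4 (5, against 6). Control EtOH replicate 2 has the shortest list of all, with 57245 peaks.

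Peli1 had fewer called regions in every SPOPmut than in every Control library with EtOH and more with DHT, and the 2 genotype differences stood 3 regions apart. Whether they differ was tested in the report under 3 nulls, and the adjusted p passed under 1 of them.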

How the results depend on the processing

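The gene-level calls of Peli1, Nfkb2, Relb and Bcl3 held on leaving out each of the 16 libraries, and no member was called lower in any of these fits. Member regions called with DHT ran from 5 to 7 in these fits, those called higher by genotype from 3 to 5 (5 without Control EtOH replicate 1) and those called lower from 3 to 5 (5 without Control DHT replicate 2 or 4). Regions lost with DHT in Control ran from 0 to 3 (3 without Control DHT replicate 1, 2 without replicate 3 and 1 without Control EtOH replicate 2), a check added after the data were seen.

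Above the list median of -log10 p, 1 member gene was called higher and 2 lower by genotype, 1 member region higher by genotype and 3 with DHT, and the contrasts gave 0 gained and 4 lost by genotype with EtOH, 5 gained and 1 lost with DHT, and 8 gained with DHT in SPOPmut. Of the 5 regions called with DHT, 1 kept its call there (chr11:21133781-21134430 of Peli1), and chr3:135620602-135621966 and chr3:135633754-135635023 of Nfkb1 were newly called (each adjusted exact p = 0.0217). The region then higher by genotype, chr12:55473240-55474558 of Nfkbia, was also not among the 3 called before (adjusted exact p = 0.0265). Genes called in all fell from 3528 to 2348 by genotype and from 959 to 638 with DHT, and regions from 5614 to 3197 and from 1422 to 780, with fewer features tested. With lists of equal length, 1 member was called higher and 1 lower by genotype and 1 lower with DHT, all but the first being Tnip1, and 3 regions were lost with DHT in Control. With at least 0.5 of the region covered, 1 region was called higher by genotype, 0 were gained by genotype with EtOH and 2 lost with DHT in Control. There chr3:135620602-135621966 and chr3:135633754-135635023 of Nfkb1 passed as higher with DHT (each adjusted exact p = 0.0217, exact stratified test). Within 25 kb, 1 region was called higher by genotype, and 1 and 4 were gained by genotype with EtOH and DHT; within 10 kb these were 1, 1 and 3, 8 were gained with DHT in SPOPmut, and Peli1 was called lower by genotype (1 member; -1.25 regions, adjusted exact p = 0.00377). As shares of called regions, 1 member was called higher and 1 lower by genotype and 1 lower with DHT, and with the chromosome correction 1 was lower in each; the genes called in all with DHT were then 2306 and 2395, and by genotype 5499 with the correction. With the mean DHT effect subtracted, 1 member was called in the difference of DHT effects.

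Without 1 library some member regions that had missed the threshold passed by genotype. They were chr7:19609613-19610183 of Relb (without Control EtOH replicate 1 or 4), chr7:19803006-19803430 of Bcl3 (without Control EtOH replicate 1 or Control DHT replicate 2), and chr11:54961455-54961950 of Tnip1 and chr3:135674459-135675118 of Nfkb1 (without Control DHT replicate 2 or 4). With DHT, chr16:55793125-55793635 of Nfkbiz passed without Control DHT replicate 1 (adjusted exact p = 0.0217). Under lists of equal length, chr7:19609613-19610183 of Relb passed as higher in SPOPmut (adjusted exact p = 0.00876, exact stratified test). There chr3:135628696-135629240 of Nfkb1 passed as lower (adjusted exact p = 0.0278). Above the list median, chr3:135623665-135624109 of Nfkb1 passed as lower in SPOPmut (adjusted exact p = 0.0265).

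Signs turned mostly for values that passed no test. By genotype these were Tnfaip3 at -0.375 with that cover, Nfkbiz at -0.5 within 25 kb and -0.625 within 10 kb. With DHT they were Nfkbia at -0.125 within 25 kb and within 10 kb, Nfkbiz at -0.625 within 10 kb, -0.0157 with the chromosome correction and -0.0833 on leaving out Control EtOH replicate 2, Control DHT replicate 3 or SPOPmut EtOH replicate 4 (range -0.0833 to 0.292 over 16), and Relb at 0.5 with equal lists and 0.0833 on leaving out SPOPmut EtOH replicate 1 or 3 (range -0.25 to 0.0833). Commd1, called lower by genotype, turned to 0.75 above the list median. The causes were not tested.

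Deviations of same-numbered libraries correlated between -0.0715 and 0.0459 over 24 pairs, and 4 of 16 libraries correlated best with their own number. Replicate 2 nonetheless had the shortest list in every group (57245 and 58038 peaks in Control EtOH and DHT, 60661 and 58800 in SPOPmut EtOH and DHT). List length thus went in part with the replicate number, and whether same-numbered libraries are paired is not known. With the replicate block, whose smallest p is 0.00781, 0 members and 0 member regions were called by the exact permutation test. Adjusted exact p was 0.149 for Peli1 and Nfkb2 with DHT (unadjusted 0.00781) and 0.0633 for Relb and 0.0972 for Bcl3 by genotype (unadjusted 0.0156 and 0.0312). Over the genome 1839 genes were called by genotype and 0 with DHT, and 0 regions in either comparison.

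The lists give no depth, so openness below the caller's threshold is not seen, and a difference in called regions is not a measured difference in accessibility.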
